A study of Mus musculus with 18 samples.

Results

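The genes described here are 9 genes that mark vagal sensory neurons: *P2rx3*, *P2rx2*, *Scn9a*, *Htr3a*, *Ntrk2*, *Isl1*, *Pou4f1*, *Prph* and *Prdm12*. They were taken by name from 3 tables of 23420 genes each, and the set was chosen by the normalized counts of the Wnt5a-Dermo1-Cre experiment, because *P2rx3*, *Scn9a* and *Htr3a* were higher in the lungs of Wnt5a-Dermo1-Cre mutants. Their values in that experiment are therefore given as a description with no test. RNA of whole mouse lungs from embryos was sequenced in 3 experiments (3 control and 3 mutant libraries each) to compare lungs with and without parts of noncanonical Wnt signaling. In the Vangl1-2 experiment, the controls were *Vangl1*-/- and the knockouts *Vangl1*-/-; *Vangl2*-/- (stage E12.5dpc), so that the loss of *Vangl1* was common to both groups. In the Wnt5a-Dermo1-Cre experiment, at the same stage, the controls were *Wnt5a* f/+; *Dermo1*Cre and the mutants *Wnt5a* f/f; *Dermo1*Cre. In the Wnt5a-Sox9-Cre experiment, at stage E13.5dpc, the controls were *Wnt5a* f/+; *Sox9*Cre and the mutants *Wnt5a* f/f; *Sox9*Cre. Controls in both *Wnt5a* experiments thus carried Cre and 1 floxed allele. *Dermo1*-Cre is a knock-in at *Twist2* that is active in mesenchyme, and *Sox9*-Cre is a knock-in at *Sox9* that was used for the epithelium. How many embryos went into a library is not given in the sources used here, so p-values measure the spread between libraries, which may in part be technical.

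Vagal sensory neurons carry signals from the airways, heart and gut to the brainstem. Their cell bodies lie in the nodose and jugular ganglia, outside the lung, and their axons reach the airways along the vagus nerve. Nodose neurons arise from placodes, whereas jugular neurons arise from the neural crest and are marked by *Prdm12*. Among the 9 genes, *P2rx3* and *P2rx2* encode subunits of ATP-gated ion channels, *Htr3a* a subunit of the serotonin-gated channel, and *Scn9a* the voltage-gated sodium channel Nav1.7. *Ntrk2* encodes TrkB, the receptor for BDNF. *Isl1*, *Pou4f1* and *Prdm12* encode transcription factors of sensory neurons, and *Prph* encodes peripherin, an intermediate filament of peripheral neurons. *Isl1* and *Ntrk2* are also expressed outside neurons, so the name of the group does not describe each of its members equally well in a whole lung.

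Values are normalized counts, which are the reads on a gene scaled by the size factor of its library. Between 15945393 and 19814346 reads per library lay on genes and the size factors were between 0.952 and 1.07, so a value of 10 rested on about 10 reads. The targeted genes were checked first. *Vangl2* was 277, 406 and 334 in the controls and 86.5, 79.8 and 89.6 in the Vangl1-2 knockouts (log2 difference −1.96 ± 0.17, SE; limma adjusted p = 0.0318). *Vangl1*, lost by genotype in both groups of that experiment, still had reads. It was 162, 219 and 113 in the controls and 239, 274 and 242 in the knockouts, with no overlap, as in 13.6% of all genes in that direction. Its log2 difference was 0.65 ± 0.23 (SE), with a limma adjusted p of 0.233. *Wnt5a* was 472, 430 and 489 in the Wnt5a-Dermo1-Cre controls and 317, 436 and 230 in the mutants, and the groups overlapped (limma adjusted p = 0.406). In the Wnt5a-Sox9-Cre experiment the controls held 451 ± 23 of *Wnt5a* (SD, n = 3) and the mutants 417 ± 48 (limma adjusted p = 0.9999). The summed level of 8 genes of the lung epithelium, among them *Nkx2-1* and *Sftpc*, was between 18991 and 23130 in the 18 libraries. Control 2 of the Vangl1-2 experiment stood apart: without it, 43.6% of 14162 genes passed an adjusted p of 0.05, against 0.00699% of 14303 genes with it.

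At baseline the 9 genes spanned a wide range per length of transcript. In RPKM, reads scaled by transcript length and library total, of the Wnt5a-Dermo1-Cre controls, *P2rx2* was 3.37 ± 0.18 (SD, n = 3), *Isl1* 1.64 ± 0.17 and *Prph* 1.48 ± 0.70. *P2rx3* was 0.431 ± 0.064, *Ntrk2* 0.347 ± 0.173 and *Htr3a* 0.308 ± 0.212, and these 3 did not differ beyond their spread. Lower still were *Scn9a* at 0.0600 ± 0.0230, *Pou4f1* at 0.0532 ± 0.0266 and *Prdm12* at 0.0168 ± 0.0145. The order was not fixed: in the Wnt5a-Sox9-Cre controls *Prph* was first at 6.25 ± 2.87 RPKM, before *P2rx2* at 3.68 ± 0.14, and their spreads overlapped. A gene was tested where at least 3 of 6 libraries held at least 10 normalized counts. By this filter, 8 of the 9 genes were tested in the Vangl1-2 experiment (not *Prdm12*) and 7 of 9 in each of the *Wnt5a* experiments (neither *Pou4f1* nor *Prdm12*). In the Wnt5a-Dermo1-Cre experiment, *Scn9a* and *Htr3a* passed only with the mutant libraries, since 2 controls of *Scn9a* and 1 of *Htr3a* held at least 10. Exon bases shared with a gene on the other strand made up 1.83% of *P2rx3* (with Ssrp1), 1.41% of *Scn9a* (Gm13629) and 8.09% of *Prdm12* (Gm13425), and whether strand was used in counting is not given in the sources used here, so reads on these bases cannot be told apart.

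**Figure D1:**
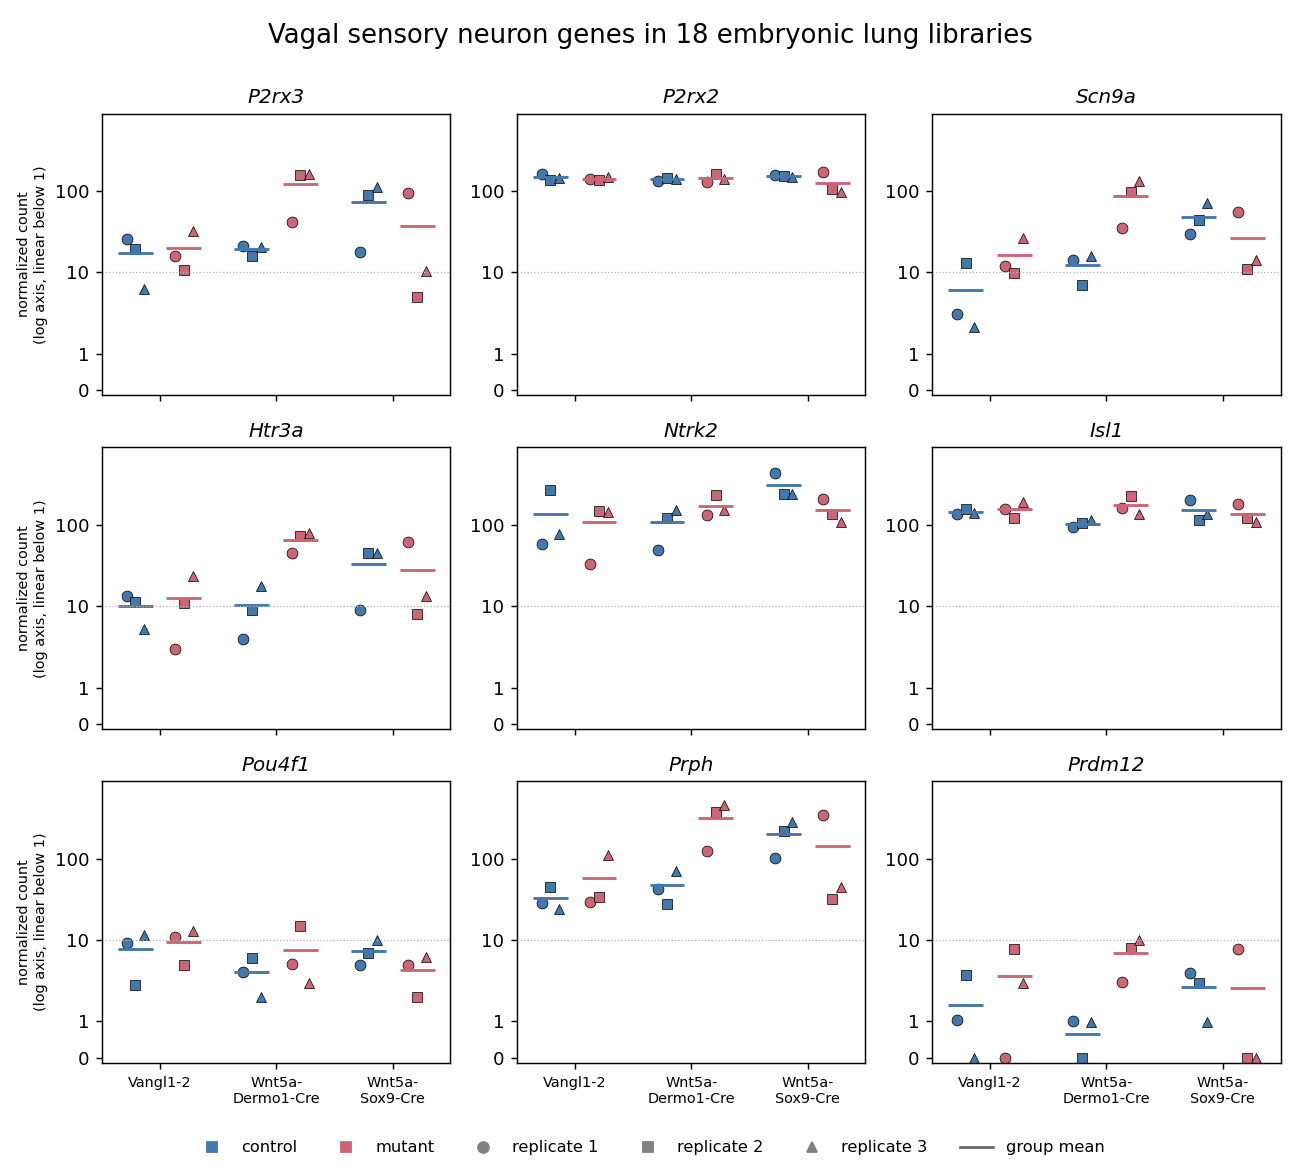
Normalized count (log axis, linear below 1) of each of the 9 genes in the 18 libraries, with controls in blue, mutants in red, 1 symbol per replicate and a line at the group mean; the dotted line marks 10. *P2rx3*, *Scn9a*, *Htr3a* and *Prph* sit higher in the 3 Wnt5a-Dermo1-Cre mutants than in their controls and split the Wnt5a-Sox9-Cre libraries across both groups, whereas *P2rx2* stays between 98.4 and 170 throughout.

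Windows around the start of transcription are in the RefSeq table of promoters (GRCm38.p6; 250 bases before to 50 after the start) for 6 of the 9 genes: *Scn9a*, *Ntrk2*, *Isl1*, *Pou4f1*, *Prph* and *Prdm12*. They were searched on both strands for TAATTA, a homeodomain core that is its own reverse complement, for CAGATG, an E-box, and for TATAAA, the TATA box; these do not overlap each other in the windows shown. *Scn9a* and *Prph* are shown because they varied together between libraries, as described below, and *Ntrk2* because it varied with them less closely. Capitals mark a match.
Scn9a (chr2:66634913-66635212, minus strand): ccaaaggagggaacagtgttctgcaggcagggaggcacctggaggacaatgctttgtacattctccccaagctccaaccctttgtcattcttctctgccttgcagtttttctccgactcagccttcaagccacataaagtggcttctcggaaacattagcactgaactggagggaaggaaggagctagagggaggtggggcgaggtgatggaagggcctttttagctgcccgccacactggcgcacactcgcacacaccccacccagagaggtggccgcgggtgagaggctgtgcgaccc
Prph (chr15:99054924-99055223, plus strand): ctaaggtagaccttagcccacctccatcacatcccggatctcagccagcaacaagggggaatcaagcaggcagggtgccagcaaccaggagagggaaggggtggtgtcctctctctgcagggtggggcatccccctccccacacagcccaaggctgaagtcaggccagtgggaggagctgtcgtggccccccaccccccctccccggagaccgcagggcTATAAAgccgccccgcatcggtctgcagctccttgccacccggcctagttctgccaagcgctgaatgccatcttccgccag
Ntrk2 (chr13:58806319-58806618, plus strand): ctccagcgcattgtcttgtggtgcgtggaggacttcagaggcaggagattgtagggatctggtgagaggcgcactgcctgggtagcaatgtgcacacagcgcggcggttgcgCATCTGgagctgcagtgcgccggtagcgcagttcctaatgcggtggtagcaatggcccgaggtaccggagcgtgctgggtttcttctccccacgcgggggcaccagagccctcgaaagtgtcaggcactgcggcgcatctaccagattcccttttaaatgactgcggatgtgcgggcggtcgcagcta
*Prph* held 1 TATAAA, a sequence in 13.6% of all 32851 windows of the table. *Ntrk2* held 1 CAGATG on its other strand (so that the line above shows its reverse complement in capitals), which is in 17.2% of windows. TAATTA, in 5.29% of all windows, was in none of the 6, and *Scn9a*, *Isl1*, *Pou4f1* and *Prdm12* held none of the 3 sequences. *Scn9a* and *Prph* held 9 and 10 CG dinucleotides, close to the median of 7 over all windows, whereas *Isl1* held 37 and *Pou4f1* 57, more than 94.4% and 99.8% of windows. The values of both genes in each library follow.

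In the Wnt5a-Dermo1-Cre experiment, the 3 ion channel genes that chose the group and *Prph* were higher in every mutant library than in every control. *P2rx3* (chr2:84998583-85037462, GRCm38) was 21.0, 16.1 and 20.8 in the controls and 41.3, 160 and 164 in the mutants. The 2 highest libraries, mutants 2 and 3, held about the same level, and mutant 1 lay between them and the controls. The difference was 2.37 ± 0.46 (SE) on the scale of log2(normalized count + 1), from 58 reads in the 3 controls and 366 in the 3 mutants. *Scn9a* (chr2:66480080-66634962) was 14.0, 7.03 and 15.9 in the controls and 35.3, 97.3 and 132 in the mutants, a log2 difference of 2.62 ± 0.47. *Htr3a* (chr9:48899213-48911099) was 4.01, 9.03 and 17.8 against 45.4, 72.4 and 79.9, a log2 difference of 2.73 ± 0.45. *Prph* (chr15:99055174-99058978) was 43.1, 28.1 and 71.3 in the controls and 125, 380 and 456 in the mutants, a log2 difference of 2.63 ± 0.46. Mutant 1 was the lowest of the 3 mutants for all 4 genes, and mutant 3 the highest. Since lungs were sequenced in bulk, more cells or axons of a type and more RNA per cell cannot be told apart in any of these values.

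The other members were a mixed set in this experiment. *Isl1* (chr13:116298281-116309689) was 93.2, 105 and 114 in the controls and 162, 230 and 135 in the mutants, again with no overlap, but with a smaller log2 difference of 0.72 ± 0.19 and with mutant 3 as the lowest mutant. *Ntrk2* (chr13:58806569-59133970) was 49.1, 120 and 153 in the controls and 132, 235 and 151 in the mutants, and the groups overlapped. *P2rx2* (chr5:110339812-110343212), whose product can form a channel together with that of *P2rx3*, was 131, 146 and 142 against 129, 163 and 141, a log2 difference of 0.04 ± 0.12. The levels of the P2X subunit genes thus parted. Per length, *P2rx3* was between 10.2% and 14.8% of *P2rx2* in the 3 controls and 29.6%, 90.6% and 107% of it in mutants 1, 2 and 3. Whether both genes were expressed in the same cells was not tested, nor was the cell type that held the *P2rx2* reads. In the 3 Vangl1-2 controls, *P2rx2* was between 135 and 163 while *Slc17a6*, a glutamate transporter of sensory neurons, was 0. *Tubb3*, a neuronal tubulin, was between 99.8 and 152 in the same controls. *Prdm12* (chr2:31640037-31655795) rested on 2 reads in the 3 controls and 21 in the 3 mutants, a ratio of 10.51 given without a test. *Pou4f1* (chr14:104461676-104467999) rested on 12 and 23 reads and its groups overlapped. In all, 5 of the 7 genes that passed the filter did not overlap between groups and were higher in mutants, beside 7.65% of all 14277 genes; the choice of the genes used this contrast, and nothing is read from the count. Their median log2 difference was 2.37, beside 0.00071 over all genes, and for the same reason nothing is read from it.

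**Figure D2:**
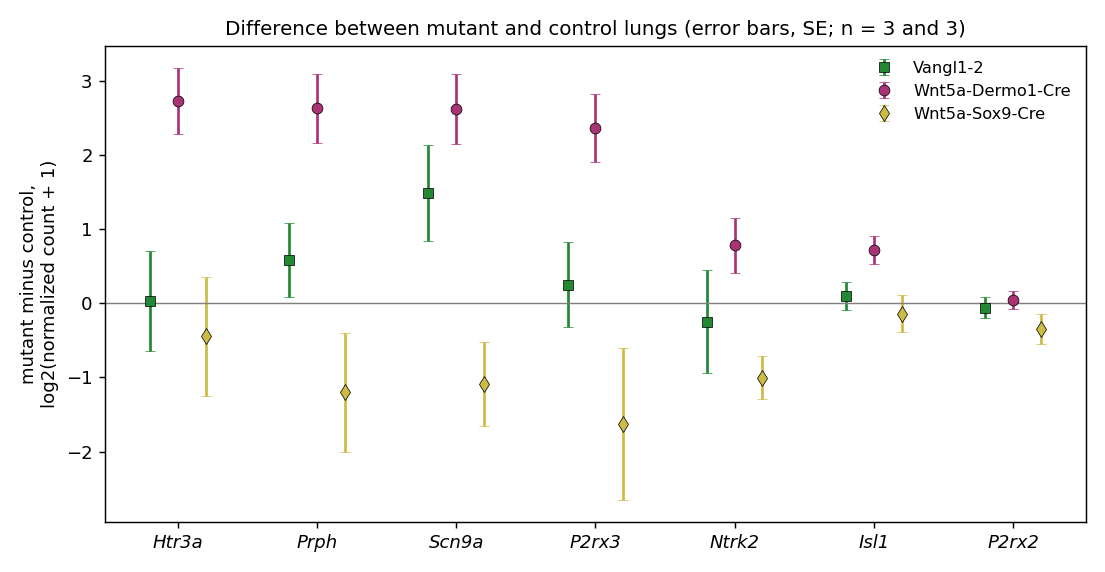
Mutant minus control on the scale of log2(normalized count + 1) for the 7 genes that passed the filter in every experiment, with SE as error bars and 3 libraries per group. *Htr3a*, *Prph*, *Scn9a* and *P2rx3* lie between 2.37 and 2.73 in the Wnt5a-Dermo1-Cre experiment, which chose the genes, and between −1.63 and −0.45 in the Wnt5a-Sox9-Cre experiment, where their error bars are wide.

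Other neuronal genes in the Wnt5a-Dermo1-Cre libraries, likewise described without a test, had the same order. Of 19 pan-neuronal genes, 16 did not overlap and were higher in mutants, beside 7.65% of all genes, with a median log2 difference of 1.31. *Tubb3*, a neuronal tubulin, was 68.1, 74.3 and 169 in the controls and 207, 534 and 623 in the mutants. *Slc17a6*, the vesicular glutamate transporter of sensory neurons, was 5.01, 0 and 8.92 against 39.3, 101 and 127, and it passed the filter through the mutants alone. As with *P2rx3*, mutant 1 was the lowest mutant for both. *Trpv1*, the capsaicin receptor of nociceptors, was between 0 and 2.01 in all 18 libraries. Of 26 further sensory channels, receptors and peptides, 15 passed the filter, 3 were higher without overlap and 2 lower, with a median log2 difference of 0.12. Over all genes, 7.65% were higher and 7.92% lower without overlap, so that the 2 lower are near this background. The 8 neurotrophin and GDNF ligand genes, of which 7 passed the filter, held none without overlap in either direction. *Bdnf*, named as the ligand of TrkB and outside the rule for named genes, was between 58.5 and 84.4 in the 6 libraries.

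In the Wnt5a-Sox9-Cre experiment, *P2rx3*, *Scn9a*, *Htr3a* and *Prph* overlapped between the groups and split the libraries within each of them. *P2rx3* was 17.8, 89.6 and 113 in the controls and 95.6, 5.03 and 10.3 in the mutants. High values were found in controls 2 and 3 and in mutant 1, and low values in control 1 and in mutants 2 and 3. *Scn9a* was 29.7, 43.8 and 70.8 in the controls and 54.7, 11.1 and 14.4 in the mutants. *Htr3a* was 8.92, 44.8 and 44.9 against 62.5, 8.05 and 13.3. *Prph* was 102, 220 and 285 against 350, 32.2 and 45.1, so that the highest and the lowest value of *Prph* both lay among the mutants. The log2 differences were −1.63 ± 1.02 (SE) for *P2rx3*, −1.20 ± 0.80 for *Prph*, −1.09 ± 0.56 for *Scn9a* and −0.45 ± 0.81 for *Htr3a*, each with an adjusted p of 0.9999 by limma. Their 95% intervals were wide: that of *P2rx3* ran from −3.97 to 0.71 and that of *Htr3a* from −2.29 to 1.39, so that neither a fall nor the absence of one is shown. Per length, *P2rx3* was 10.3%, 54.3% and 70.0% of *P2rx2* in the controls and 52.0%, 4.44% and 9.61% of it in the mutants.

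*Ntrk2* was the member whose groups were apart in that experiment. It was 437, 243 and 238 in the controls and 211, 137 and 108 in the mutants, with no overlap, as in 4.36% of all genes in that direction, and a log2 difference of −1.004 ± 0.289 (SE; 95% interval −1.66 to −0.34). Its unadjusted p by limma was 0.00771 and its adjusted p was 0.9999, and the exact two-sided permutation p was 0.1, the smallest that 3 libraries against 3 can give. It was the 1 of 7 members lower at an unadjusted p under 0.05, beside 2.81% of all 14293 genes, and 0 members were higher, beside 1.08%. After adjustment, 0 members and 0 of 14293 genes (0%) passed by limma, with 557 genes passing unadjusted in either direction. *P2rx2* was 160, 152 and 149 in the controls and 170, 105 and 98.4 in the mutants, and *Isl1* 205, 114 and 136 against 183, 121 and 108; both had groups that overlapped. For *P2rx2*, too, mutant 1 was the highest of the 6 libraries. *Pou4f1* rested on 22 reads in the controls and 13 in the mutants, and *Prdm12* on 8 and 8.

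Mutant 1 held the highest values among the mutants for these genes, so leaving it out lowers the mutants by construction. The counts that follow rest on mutants 2 and 3 alone, and no fall is read from them. Without mutant 1, 5 of 7 members in place of 1 were lower at an unadjusted p under 0.05, beside 5.81% of 14151 genes. These were *P2rx3*, *Prph*, *Scn9a*, *P2rx2* and *Ntrk2*, with log2 differences of −2.81, −2.26, −1.76, −0.59 and −1.27. Their adjusted p-values by limma were 0.205, 0.0898, 0.137, 0.145 and 0.128, so none passed the threshold, beside 0.0919% of genes. Among the 19 pan-neuronal genes the same omission of mutant 1 moved the count from 1 to 14 lower in mutants at the unadjusted level, and 8 of them passed the adjusted threshold by limma, of 13 genes that did so in all. Control 1 held the lowest *P2rx3* of the controls. Without it, 2 of 7 members were lower at the unadjusted level, *Ntrk2* and *P2rx3*, beside 1.78% of 14175 genes. *Slc17a6* was 6.94, 57.7 and 61.8 in the controls and 82.0, 0 and 0 in the mutants, the same split as *P2rx3*; a value of 0 allows up to 3 reads by counting error.

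**Figure D3:**
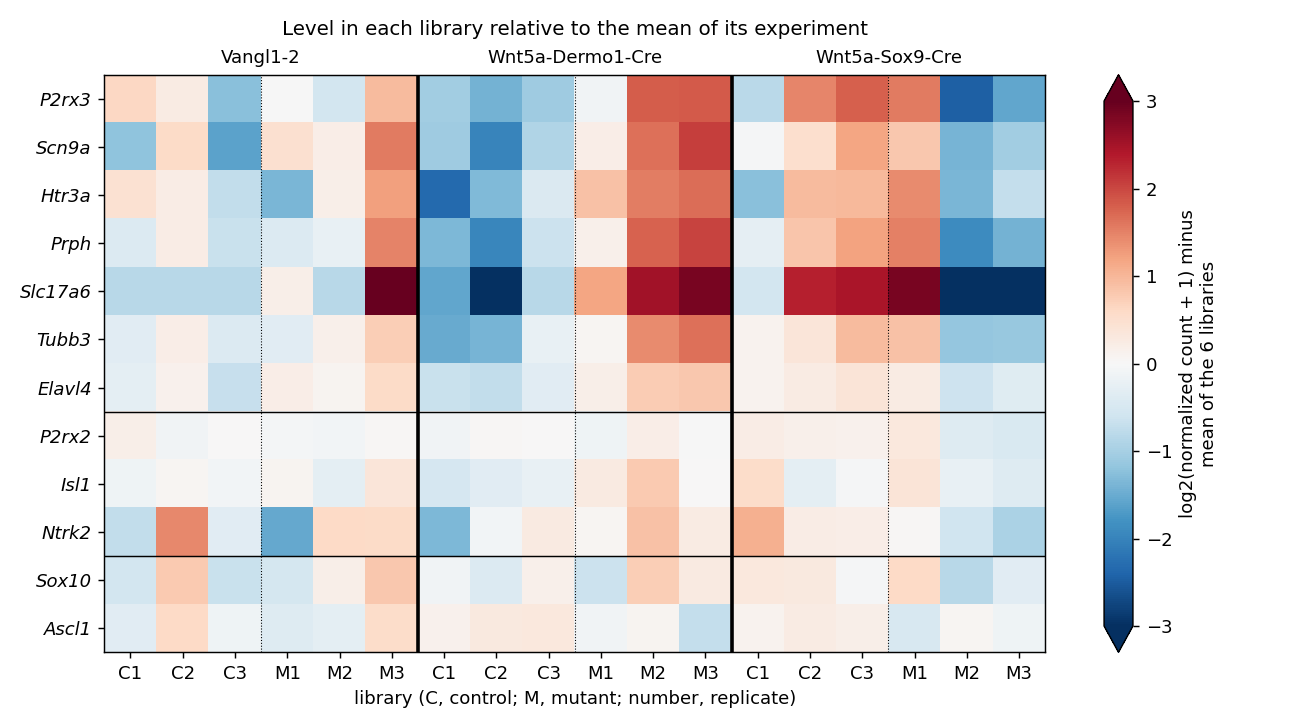
Level of 7 members and 5 other neuronal or glial genes in each library, as log2(normalized count + 1) minus the mean of the 6 libraries of its experiment (red, above; blue, below; values past 3 are drawn at the end of the scale). Rows from *P2rx3* to *Elavl4* are red in Wnt5a-Dermo1-Cre mutants 2 and 3 and blue in Wnt5a-Sox9-Cre mutants 2 and 3, whereas *P2rx2* is pale throughout.

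In the Vangl1-2 experiment, the values of controls and knockouts overlapped for all 8 members tested, whereas 22.3% of all genes did not overlap in one direction or the other. *P2rx3* was 25.8, 19.6 and 6.31 in the controls and 16.1, 10.8 and 32.5 in the knockouts, and the groups overlapped (log2 difference 0.25 ± 0.57, 95% interval −1.06 to 1.56). *Htr3a* was 13.4, 11.2 and 5.25 against 3.02, 10.8 and 23.6, a log2 difference of 0.03 ± 0.67. *Prph* was 28.9, 45.7 and 24.2 against 29.2, 33.5 and 112, with knockout 3 above the other 5 libraries. *Scn9a* was 3.10, 13.05 and 2.10 in the controls and 12.1, 9.85 and 26.6 in the knockouts, from 19 and 49 reads. Control 2 overlapped with the knockouts for *Scn9a*; its log2 difference of 1.48 ± 0.64 had an unadjusted p of 0.0497 and an adjusted p of 0.243 by limma, and an exact two-sided permutation p of 0.3. It was the 1 of 8 members higher at the unadjusted level, beside 12.0% of all 14303 genes, and 0 were lower, beside 8.56%. A pseudocount of 5, other scalings, a filter on the mean and the omission of control 1 or control 3 ended that call, as did removal of the trend on transcript length (log2 difference 1.14). Without control 2, knockout 1 or knockout 3, *Scn9a* fell under the filter and was not tested. After adjustment 0 of 8 members passed by limma, beside 0.00699% of genes, and 0 of the 7 members tested without control 2, beside 43.6%.

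*Ntrk2* varied widely between these libraries. It was 58.9, 268 and 77.8 in the controls and 33.2, 150 and 146 in the knockouts, a log2 difference of −0.25 ± 0.70 that turned to 0.41 without control 2. *P2rx2* was 163, 135 and 146 against 140, 137 and 149, and *Isl1* 138, 156 and 142 against 159, 122 and 194, with log2 differences of −0.06 ± 0.14 and 0.10 ± 0.19. The 95% interval of *P2rx2*, −0.38 to 0.26, was the narrowest of the 8. *Pou4f1* was 9.30, 2.80 and 11.6 against 11.1, 4.93 and 12.8, and *Prdm12* rested on 5 and 11 reads. *Slc17a6* was at 0 in the 3 controls and in knockout 2, at 1.01 in knockout 1 and at 14.8 in knockout 3, the library with the highest *P2rx3*, *Scn9a*, *Htr3a* and *Prph*. Of 19 pan-neuronal genes, 5 were higher at an unadjusted p under 0.05 by limma, beside 12.0% of all genes, and 0 lower, beside 8.56%. Their median log2 difference was 0.42, and leaving out each library in turn gave between 1 and 8 higher. In this experiment the log2 differences of all genes followed the length of their transcripts (Spearman's rho 0.594 across 14184 genes, which are not independent replicates), and *Scn9a* and *Ntrk2* have the longest exon sequence of the members, 12772 and 19292 bases. With that trend removed the log2 difference of *Scn9a* was 1.14 and that of *Ntrk2* −0.73.

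Between libraries of the same group, 4 members went together and *Isl1* and *Ntrk2* followed them less closely. With the mean of each group removed, *P2rx3* and *Prph* had a Pearson r of 0.90 over the 18 libraries, *Scn9a* and *Prph* 0.90, *Htr3a* and *Prph* 0.84, *P2rx3* and *Scn9a* 0.82, *P2rx3* and *Htr3a* 0.81 and *Scn9a* and *Htr3a* 0.66. *P2rx3* had an r of 0.12 with *Ntrk2* and 0.22 with *Isl1*. The r of *Ntrk2* was 0.45 with *Htr3a*, 0.42 with *Scn9a* and 0.38 with *Prph*. That of *Isl1* was 0.14, 0.32 and 0.37 with the same genes. *P2rx2* took a middle place, with an r of 0.67 with *P2rx3* and with *Prph* and 0.65 with *Isl1*, although it changed little in size. These values are descriptions, since libraries share their dissection and their scaling, and removing group means leaves nothing of the contrast that chose the genes. They lean on single libraries. Wnt5a-Sox9-Cre mutant 1 lay above its group mean by 2.37 for *P2rx3*, 2.11 for *Prph*, 1.65 for *Htr3a* and 1.35 for *Scn9a* in log2. For each of these 4 genes this was the widest deviation of the 18 libraries, and r without that library is not given here.

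**Figure D4:**
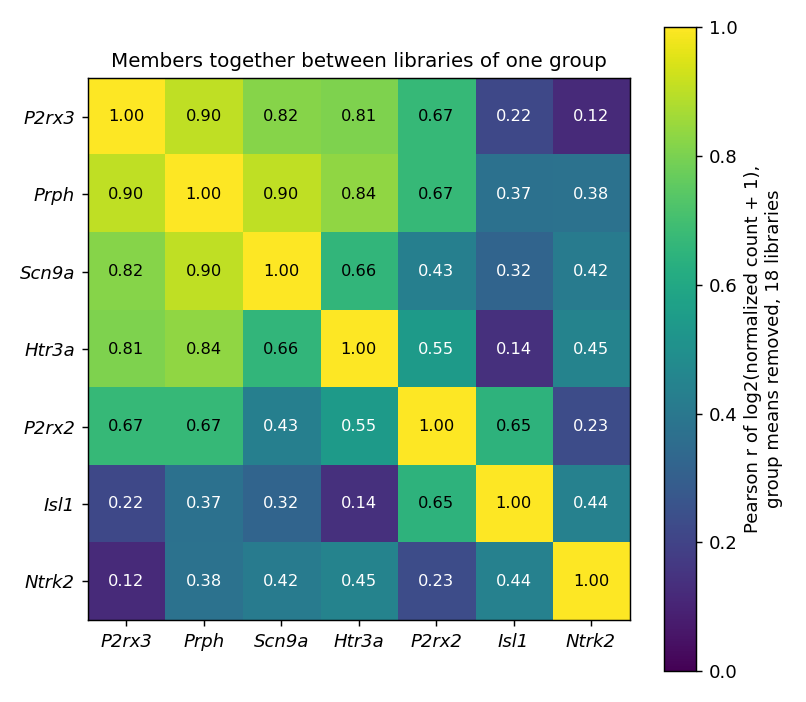
Pearson r between members over 18 libraries, computed on log2(normalized count + 1) after the mean of each of the 6 groups was removed. *P2rx3*, *Prph*, *Scn9a* and *Htr3a* form a block with r between 0.66 and 0.90, and *Isl1* and *Ntrk2* have r of at most 0.65 with every other member.

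The genes most like each member were found among 13978 others in the same way. Among the 3 nearest to *P2rx3* were *Gng3* (r = 0.92) and *Dner* (0.91), and among the 3 nearest to *Prph* were *Mapt* (0.95) and *Dner* (0.94). *Scn9a* was nearest to *Elavl4* (0.96), an RNA-binding protein of neurons, to *L1cam* (0.95) and to *Kif5a* (0.94). For *Htr3a* the nearest was *Pirt* (0.88), a regulator of channels in peripheral sensory neurons, before *Syt4* (0.86) and *Pfkp* (0.84). The summed level of the pan-neuronal genes had an r of 0.93 with *Scn9a*, 0.89 with *Prph*, 0.83 with *P2rx3* and 0.64 with *Htr3a*, against 0.44 with *Isl1* and 0.41 with *Ntrk2*. *Isl1* instead was nearest to *Six2* (0.90), *Angptl1* (0.88) and *Penk* (0.87), and its r was 0.82 with the summed markers of esophagus and airway basal epithelium and 0.80 with those of autonomic neurons. *Ntrk2* was nearest to *Dusp8* (0.97), *Ebf2* (0.94) and *Bhlhe40* (0.94), and its r with the summed markers of lung mesenchyme was 0.81. *P2rx2* was nearest to *Ccdc64* (0.88), *Frmpd1* (0.88) and *Hist3h2ba* (0.87).

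The members also differed in how far their spread exceeded counting error. The variance over the mean of the normalized counts, which is about 1 when counting alone sets the spread, was between 0.201 and 2.03 for *P2rx2* in 5 of the 6 groups and 12.6 in the Wnt5a-Sox9-Cre mutants. For *P2rx3* it was 0.410 in the Wnt5a-Dermo1-Cre controls, 39.8 in their mutants, 33.4 in the Wnt5a-Sox9-Cre controls and 70.0 in their mutants. The Wnt5a-Dermo1-Cre controls thus agreed within counting error for *P2rx3*, whereas the controls of the Wnt5a-Sox9-Cre experiment did not. *Prph* reached 228 in the Wnt5a-Sox9-Cre mutants, the highest of all members. From the lowest to the highest library of an experiment, *P2rx3* spanned 5.15-fold, 10.2-fold and 22.4-fold in the Vangl1-2, Wnt5a-Dermo1-Cre and Wnt5a-Sox9-Cre experiments, and *P2rx2* 1.21-fold, 1.26-fold and 1.73-fold.

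Markers of neighboring tissues also varied between these libraries. Of 14 cardiomyocyte genes, 11 passed the filter in the Wnt5a-Dermo1-Cre experiment. The summed level of all 14 was between 1440 and 21282 in controls and between 955 and 4439 in mutants. The 8 listed genes of skeletal muscle, 7 of them in the table, summed to between 59.1 and 748 in controls and between 85.7 and 1654 in mutants, and the 7 genes of esophagus and airway basal epithelium to between 417 and 838 and between 279 and 721. Mutant 3, with the highest *P2rx3*, had the lowest cardiomyocyte sum and the lowest esophagus sum of the 6 libraries. In the Wnt5a-Sox9-Cre experiment the cardiomyocyte sum was between 5608 and 19364 in controls and between 1105 and 6101 in mutants. Its lowest values were in mutants 2 and 3, where *P2rx3* was lowest as well. At an unadjusted p under 0.05 by limma, 11 of 14 genes were lower, beside 2.81% of all 14293 genes. Leaving out each library in turn gave between 1 and 13 lower, with 1 of 11 without control 3, the library with the highest sum. The skeletal muscle sum was between 111 and 795 in controls and between 45.1 and 1480 in mutants, again lowest in mutants 2 and 3, and the esophagus sum between 420 and 646 and between 466 and 761. In all 18 libraries no gene of the esophagus, cardiomyocyte or skeletal muscle list was at 0 throughout. The 11 genes of central nervous tissue summed to between 26.1 and 113 in the 18 libraries, with 1 of them past the filter in each experiment. The part of these tissues in the levels of the 9 genes was not tested.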

How the data were processed

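Total RNA of whole embryonic lungs was extracted with the RNeasy kit and sequenced on Illumina HiSeq instruments. Per the labels, the authors used Trim Galore, HISAT2, featureCounts and DESeq2 with build mm10; versions, annotation and strand setting are not given in the sources used here. The deposited values are a signal: the authors scaled the count of each gene by the size factor of its library. Within a library all values were multiples of a fixed step (largest deviation 0.000108 reads). Columns of the authors' own fold changes and p-values, and their mean column, were not used.

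Within each table, log2(normalized count + 1) of genes with at least 10 in at least 3 of 6 libraries was compared between mutants and controls with limma (version 3.58.1, R 4.3.3), with a mean-variance trend and Benjamini-Hochberg adjustment at 0.05. Exact permutation tests over the 6 libraries were two-sided. Tables were normalized separately, so no test was made across them, and whether the Wnt5a-Dermo1-Cre and Wnt5a-Sox9-Cre differences differ from each other was not tested. RPKM used the exon lengths of GENCODE release M21, which paired with 98.3% of 23418 names. The procedure was tested on simulated data. The 9 genes, the marker lists and the tests were chosen with earlier results of these data known. Named genes were the 9 members, the targeted genes, a fixed set of neuron and glia markers, the genes of each marker list with the smallest p and no overlap (up to 3), and the 3 genes most like each member; some of these are not reported here. Same-numbered libraries of the 2 groups of an experiment correlated between −0.223 and 0.303 in their deviations, and other-numbered ones between −0.282 and 0.341. The numbers were therefore not used as pairs in the main test. With 3 libraries per group this check cannot exclude a pairing. Figures were drawn with Python (matplotlib).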

Additional observations from a re-analysis of the deposited data

How the results depend on the processing

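Without 1 library each, the median log2 difference of the members was −1.27 to −0.55 in the Wnt5a-Sox9-Cre experiment and −0.13 to 0.43 in the Vangl1-2 experiment. It was 2.03 to 2.97 in the Wnt5a-Dermo1-Cre experiment, whose values chose the genes, so that its sign is no sign of stability. The 1 member at an unadjusted p under 0.05 in the Vangl1-2 experiment, Scn9a, became 0 with a pseudocount of 5, a filter on the mean, scaling by total reads or by the upper quartile (chosen after seeing the data), the replicate block, or the trend on transcript length removed, and the cause was not tested. It was 0 to 1 without 1 library each: Scn9a was not tested without control 2, knockout 1 or knockout 3, where it fell under the filter, and missed the threshold without control 1 or control 3. In the Wnt5a-Sox9-Cre experiment the 1 such member became 1 to 5 without 1 library each. The adjusted count was 0 in both experiments under every alternative run.

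Leaving out 1 library each changed the sign of some log2 differences, which ranged in the Vangl1-2 experiment from −0.31 to 0.63 for P2rx3, −0.12 to 0.013 for P2rx2, −0.58 to 0.73 for Htr3a, −0.68 to 0.46 for Ntrk2, −0.058 to 0.27 for Isl1, −0.19 to 0.71 for Pou4f1 and −0.021 to 0.93 for Prph, and in the Wnt5a-Sox9-Cre experiment from −0.37 to 0.10 for Isl1 and from −1.27 to 0.13 for Htr3a. With the trend on transcript length removed, P2rx2 was 0.10 in the Vangl1-2 experiment. With the replicate block, the Vangl1-2 log2 difference of Scn9a was 1.48 (limma unadjusted p = 0.0598), and it changed no other call. The planned edgeR, DESeq2 and TMM alternatives were not run. A check of the unit did not accept whole reads for 11 of the 18 libraries, whose steps were close to 1. All values were nevertheless multiples of the step of their library, and the reads given here are values divided by that step. Genes under about 10 reads, here Pou4f1 and Prdm12, are limited by depth.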
